A study of Mus musculus with 26 samples.

Results

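The 8 arrays described here are the v-src arrays of a study of immortalized mouse embryonic fibroblasts, 8 of its 26 arrays. They were chosen by the vector named in the labels, and the 3 parental lines among them, WA with 3 arrays, WB with 2 and WC with 3, were compared with each other over autosomal genes. The v-src cells carry the retroviral vector named pBabe-human v-src. Cells of the same 3 lines with pBabe-puro, the empty vector (9 arrays), or with pBabe-human c-myc (9 arrays) served for comparison. The series was collected to test an expression signature of growth without anchorage that had been derived in human breast cancer cells. Replicate 1 of the WB v-src cells was not analysed here. Each line is a single immortalized line, so a difference between lines is one between 3 individual lines and not between kinds of fibroblast. The labels give no mouse strain, age or passage, and do not say whether replicates came from separate infections or cultures, so that p-values measure only the spread between these arrays, which may be technical.

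The v-Src protein is the oncogene product of Rous sarcoma virus, a tyrosine kinase that lacks the inhibitory tail of its cellular relative and is therefore always active. In fibroblasts it phosphorylates proteins of adhesions and the cytoskeleton and drives the Ras and STAT3 pathways, and it is known for making fibroblasts round up, lose actin bundles and grow without anchorage. Embryonic fibroblasts come from many parts of the embryo, keep marks of the position they came from, and gain genetic changes of their own when they are immortalized.

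RNA was hybridised to Affymetrix mouse arrays, and each gene is given below as the deposited MAS5 intensity, in arbitrary units, of 1 probe set. Every array had been scaled to the same 2% trimmed mean of 500, and the medians of the 8 v-src arrays lay between 107 and 129. Correlations of log2 values over all genes tested were 0.977 to 0.982 between v-src arrays of 1 line, 0.937 to 0.941 between WA and WB, 0.911 to 0.917 between WA and WC and 0.921 to 0.926 between WB and WC, so no v-src array stood apart from its line. Differences between lines made up 76.4% of the variance among the 8 arrays. The endogenous Src probe set read 2429, 1934 and 1831 in WA, 1666 and 1741 in WB and 1658, 1249.5 and 1322 in WC, at most 1.46-fold between line means. Whether that probe set also measures the introduced v-src was not tested, so a line difference and a difference in the amount of v-src cannot be told apart.

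The cells carried the defining markers of fibroblasts in every line. Vimentin (Vim) averaged 19888 (WA), 18973 (WB) and 20702 (WC), and the collagen gene Col1a2 18409 (WA), 16951 (WB) and 16188 (WC). The 16 fibroblast markers summed to 95417 to 109125 units in WA, 115808 to 116686 in WB and 101403 to 110285 in WC. Of the markers of other cells, the leukocyte antigen Ptprc averaged 38.1 (WA), 30.3 (WB) and 56.8 (WC), the endothelial Pecam1 12.5 (WA), 10.6 (WB) and 35.4 (WC) and the epithelial Cdh1 72.2 (WA), 84.7 (WB) and 76.2 (WC), all below the array medians. Other members of such lists read above them. The macrophage marker Csf1r averaged 456 (WA), 531 (WB) and 541 (WC) and the endothelial Egfl7 442 (WA), 421 (WB) and 238 (WC). Mcpt8 of the mast cell list averaged 1666 (WA), 2098 (WB) and 1728 (WC), while 7 of its 10 markers averaged under 100 units in each line. None of these 3 genes was called. The 11 epithelial markers together summed to 3484 to 7507 units in WA, 2359 to 3724 in WB and 3242 to 7049 in WC. Among them Epcam averaged 3818 (WA), 1429 (WB) and 3484 (WC) with wide spread between arrays and was not called. Krt19, a keratin, averaged 1071 (WA), 675 (WB) and 467 (WC). It was the 1 gene called of 10 tested (10%, near the 11.8% of all autosomal genes). The part of epithelial cells in the line differences was not tested. Within the fibroblast list 7 of 16 genes still differed among the lines (43.8%, against 11.8% of all autosomal genes). Among them was Pdgfra, a receptor of the growth factor PDGF, at 857 ± 65.8 (WA), 4626 ± 72.4 (WB) and 5341 ± 979.6 (WC). Fewer cells of a type and less RNA per cell cannot be told apart in these bulk samples.

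Autosomal genes differed widely among the v-src lines. By limma's moderated F test, 1486 of the 12616 autosomal genes tested had an adjusted p under 0.05 together with at least a 2-fold span of line means, which is 11.8% of them. On the adjusted p alone 5667 genes (44.9%) passed. The span reached at least 4-fold for 457 genes, 8-fold for 163 and 16-fold for 71. Folds here are ratios on the scale of log2(intensity + 23) and understate the difference of genes with low values, and standard errors (SE) are on that log2 scale. Between WA and WB 696 genes were called (5.52%), 247 higher in WA (1.96%) and 449 lower (3.56%). WA and WC differed in 1060 genes (8.4%), 369 higher in WA (2.92%) and 691 lower (5.48%). WB and WC differed in 805 genes (6.38%), 354 higher in WB (2.81%) and 451 lower (3.57%). On adjusted p alone the shares were 27.4%, 36.6% and 26.9%. The filter on low values used the mean over all 8 arrays, so that a gene high in 1 line could pass through that line.

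Many genes set 1 line apart from both others. WC was higher than WA and WB for 305 genes (2.42% of those tested) and lower for 157 (1.24%). WA was higher for 105 genes (0.832%) and lower for 255 (2.02%), and WB was higher for 134 (1.06%) and lower for 90 (0.713%). For all of these but 1 WC-higher gene, the arrays of that line did not overlap those of the other lines. With so few arrays per line the calls nearly require this, and the share over all genes was not counted. The 5 genes with the widest gap in each line and direction are plotted and described below.

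**Figure D1:**
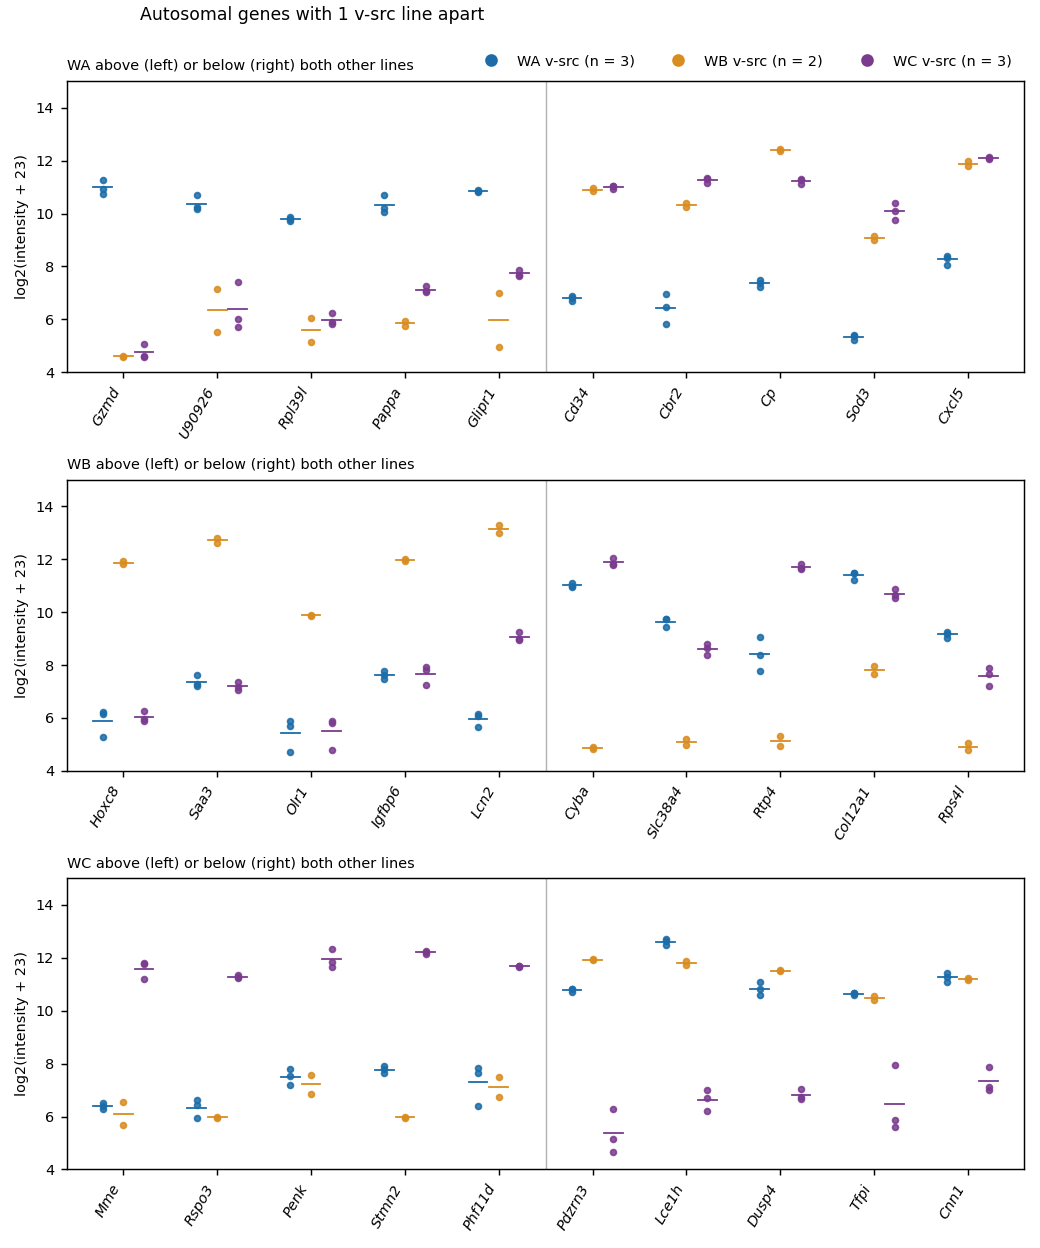
Values of log2(intensity + 23) for each v-src array (points) and line means (bars) of the 5 autosomal genes with the widest gap for each line and direction; WA in blue (n = 3), WB in orange (n = 2) and WC in purple (n = 3). In each panel the points of the named line lie above (left) or below (right) all points of the other lines, as for Cyba, near 6.31 intensity units in WB against 2052 in WA and 3765 in WC. Only genes without overlap were eligible for the plot.

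Interferon-stimulated genes were high in WC v-src cells, and of the gene lists examined theirs had the widest median span of line means, 3.13 on the log2 scale. Interferons are secreted alarm proteins. They act through cell surface receptors, kinases and transcription factors, which bind a promoter element read as repeats of GAAA, the interferon-stimulated response element, and switch on antiviral genes. Of the 39 listed interferon-stimulated genes 36 had a probe set among those used here and 34 passed the filter and were tested. The F test called 32 of these, against 11.8% of all autosomal genes, and 31 were higher in WC than in both other lines, against 2.42%. WB was the lowest line for 8 of them, lower than WA as well as WC. The median log2 difference over the 34 genes was -2.57 for WA minus WC, -3.13 for WB minus WC and 0.49 for WA minus WB, where the medians of all autosomal genes were 0.015, 0.025 and -0.0048.

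The promoters of 3 of the most different members are shown because they hold runs of letters of the response element. The sequences run from 250 bases before to 50 bases after the RefSeq start of transcription in GRCm38.p6, all on the plus strand, 5′ to 3′, and capitals mark matches to GAAA, any 2 bases and GAAA again, searched on both strands.
Ifit3, chr19:34583279-34583578: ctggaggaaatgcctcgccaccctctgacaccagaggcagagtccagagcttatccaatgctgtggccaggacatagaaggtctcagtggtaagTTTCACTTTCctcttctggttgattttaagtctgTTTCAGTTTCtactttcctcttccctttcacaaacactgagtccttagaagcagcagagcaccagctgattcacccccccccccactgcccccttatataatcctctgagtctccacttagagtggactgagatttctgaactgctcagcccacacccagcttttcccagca
Ifit1, chr19:34640639-34640938: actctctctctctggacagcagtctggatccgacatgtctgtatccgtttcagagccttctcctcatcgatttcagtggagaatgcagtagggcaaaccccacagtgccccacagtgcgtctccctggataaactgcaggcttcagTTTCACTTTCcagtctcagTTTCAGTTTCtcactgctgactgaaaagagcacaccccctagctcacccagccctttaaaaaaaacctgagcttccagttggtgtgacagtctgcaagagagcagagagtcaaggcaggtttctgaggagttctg
Gbp3, chr3:142559794-142560093: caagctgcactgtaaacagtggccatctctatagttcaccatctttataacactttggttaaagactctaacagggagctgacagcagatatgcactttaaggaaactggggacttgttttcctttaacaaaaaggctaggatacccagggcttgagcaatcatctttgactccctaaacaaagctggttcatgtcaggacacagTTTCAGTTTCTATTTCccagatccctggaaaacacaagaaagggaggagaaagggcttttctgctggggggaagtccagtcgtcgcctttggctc
In Ifit3 the matches begin 122 and 156 bases before the start, in Ifit1 85 and 104 bases before it, and in Gbp3 39 and 45 bases before it, where they overlap each other. All were read on the plus strand as the reverse complement. Gbp3 had 2 promoters, and the 1 shown was picked by its number of matches, then by position. Such a match was found in the promoters of 15 of the 25 interferon-stimulated genes with a promoter in the table (60%), and in 3.58% of the 10146 autosomal genes tested that had one. A gene with several promoters was counted if any of them held a match. Among all 225 genes higher in WC with a promoter, 35 held a match (15.6%). The shares in the other sets of genes with 1 line apart ran from 2.63% for genes lower in WC to 10.4% for genes lower in WB. A match is a run of letters and was not tested as a binding site.

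Ifit3, an interferon-induced protein with tetratricopeptide repeats that restrains viral replication, read 647, 465 and 381 in WA, 114 and 72.2 in WB and 6769, 6373 and 6999.9 in WC. The 3 lines did not overlap, with WC highest and WB lowest. WC was 13.2-fold (log2 SE 0.18, adjusted p = 5.85e-08) above WA and 58.9-fold (log2 SE 0.20, adjusted p = 9.44e-09) above WB. Its relative Ifit1, which binds foreign RNA ends, read 374, 243 and 179 in WA, 95.8 and 59.3 in WB and 4843, 4612 and 4907 in WC. WC exceeded WA 17.3-fold (log2 SE 0.21, adjusted p = 1.09e-07) and WB 48.6-fold (log2 SE 0.24, adjusted p = 4.71e-08).

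Rtp4, an interferon-induced chaperone of receptors at the cell surface, had the widest span of the list. It read 506, 311 and 198 in WA, 7.44 and 16.6 in WB and 3258, 3546 and 3133 in WC, so that WB lay at the bottom of the array's range while WA was intermediate and WC high. The difference was 96-fold (log2 SE 0.28, adjusted p = 4.84e-08) between WC and WB and 9.77-fold (log2 SE 0.28, adjusted p = 1.25e-05) between WA and WB. Gbp3, an interferon-induced GTPase that attacks the vacuoles of intracellular parasites, read 186, 135 and 169 in WA, 69.7 and 51 in WB and 2105, 1959 and 1860.4 in WC. WC exceeded WB 24.1-fold (log2 SE 0.17, adjusted p = 1.37e-08), and the 3 lines again did not overlap. Cxcl10, a chemokine that draws activated T cells, read 86, 135 and 109 in WA, 58.5 and 25.5 in WB and 937, 695 and 721 in WC, with WC 12.7-fold (adjusted p = 2.34e-06) above WB. Ifit3 and Gbp3 belong to families of close copies whose probes may share signal.

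**Figure D2:**
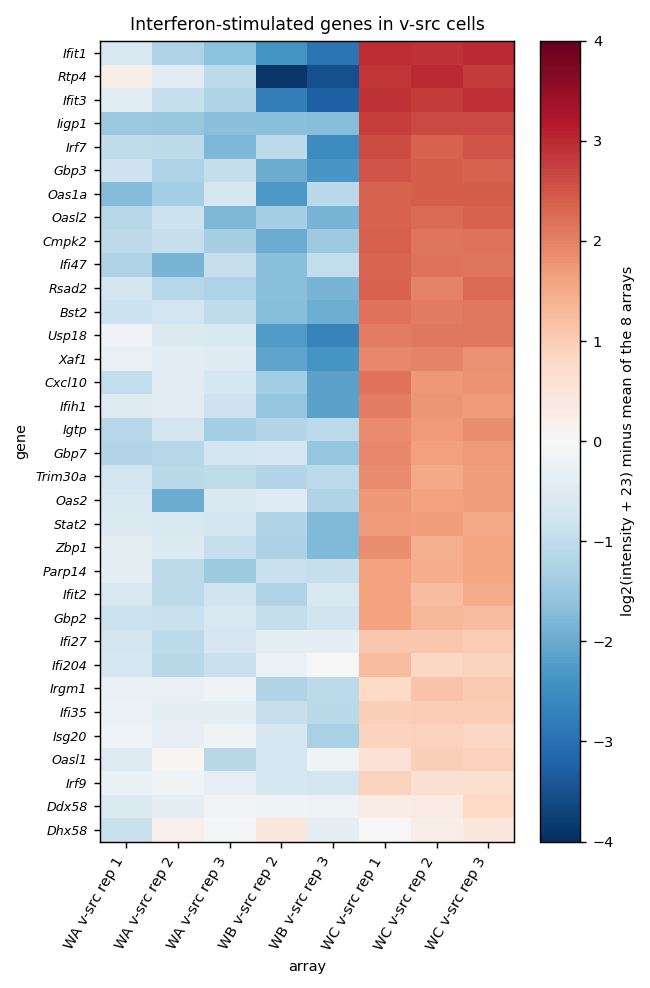
Heat map of the 34 interferon-stimulated genes tested, 1 row per gene and 1 column per v-src array, showing log2(intensity + 23) minus the gene's mean over the 8 arrays. The 3 WC columns are red for nearly every gene, and the averages over the genes were 10.6 to 10.7 in the WC arrays, 8.01 to 8.20 in WA and 7.40 to 7.56 in WB.

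The line differences in interferon genes were larger with v-src than with the empty vector. In empty-vector cells the median differences of the same 34 genes were 0.13 for WA minus WB, -1.14 for WA minus WC and -0.97 for WB minus WC. In a test of whether line differences depend on the vector, 25 of the 34 were called, where 5.73% of all autosomal genes were. The median of v-src minus empty over the list was 2.44 in WC, 0.92 in WA and 0.33 in WB. With the empty vector Ifit3 read 85.5 ± 52 (WA), 57.7 ± 16 (WB) and 388 ± 85.4 (WC) (SD, n = 3 each), and Gbp3 59.9 ± 14.6 (WA), 66.3 ± 25.4 (WB) and 215 ± 118 (WC). The macrophage and blood markers, 13 on the array, also summed highest in WC, with 4122 to 4587 units against 1865 to 1989 in WA and 2615 to 2696 in WB. That excess was carried by Cd14, the coreceptor for bacterial lipopolysaccharide, at 354 (WA), 1000.1 (WB) and 2711 (WC), while Ptprc stayed as low as above and 6 of the 13 markers averaged under 100 units in each line. The part of such cells in the interferon result was not tested.

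Several genes that prepare antigens for display on MHC class I were also highest in WC. Of 18 genes tested 10 were called (55.6%, against 11.8%) and 7 were higher in WC than in both others (2.42% of all). B2m, Erap1, Tapbpl, Nlrc5, Calr, Canx and Pdia3 were among those not called. Psmb8, a catalytic subunit of the immunoproteasome that cuts proteins into peptides, read 12.6, 5.7 and 9.8 in WA, 99.7 and 80.9 in WB and 897, 812 and 878 in WC. All 3 lines were separate, and WC was 27.4-fold (log2 SE 0.20, adjusted p = 2.49e-08) above WA and 7.84-fold (log2 SE 0.22, adjusted p = 3.25e-06) above WB. Empty-vector cells read 33 ± 23.7 (WA), 24.5 ± 16.1 (WB) and 50.4 ± 38.4 (WC), and the change in its line differences passed the line-by-vector test (adjusted p = 2.65e-05). Psmb9, its partner subunit, read 20.1 to 50.7 in WA, 19.6 to 52.2 in WB and 408 to 561 in WC, and Tap1, a subunit of the pump that carries peptides to MHC molecules, read 12.8 to 83.2 in WA, 71.6 to 105 in WB and 426 to 575 in WC. The class I gene H2-D1 read 2006, 1727 and 1435 in WA, 2934 and 2852 in WB and 7214, 7689.6 and 9103 in WC, with WC 4.62-fold (adjusted p = 1.05e-07) above WA; H2 genes have near-identical copies and this probe set may read several of them. Its line differences were not shown to differ by vector (adjusted p = 0.293).

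Beyond interferon genes, several genes of secreted and surface proteins were far higher in WC v-src cells than in the other lines. Mme, or neprilysin, a surface peptidase that inactivates small peptide hormones, read 67.2, 62.4 and 54.5 in WA, 28.4 and 70.2 in WB and 3498, 3556 and 2320.0 in WC. WC was 36.7-fold (log2 SE 0.23, adjusted p = 4.01e-08) above WA and 44.7-fold above WB, and no difference between WA and WB was called (adjusted p = 0.483). Rspo3, a secreted amplifier of Wnt signalling, read 39, 64.1 and 74.5 in WA, 39.8 and 39.2 in WB and 2473, 2588 and 2386 in WC and differed 40.1-fold (log2 SE 0.20, adjusted p = 1.71e-08) between WC and WB. Penk, the precursor of the enkephalin opioid peptides, read 161, 122 and 202 in WA, 168 and 93.9 in WB and 3633, 5189 and 3172 in WC, with WC 21.6-fold (adjusted p = 1.04e-07) above WA. For these 3 genes WA and WB overlapped.

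Stmn2, a stathmin that loosens microtubules and is best known from neurons, read 198, 176 and 217 in WA, 39.4 and 40.7 in WB and 4760.1, 4849 and 4447 in WC. All 3 lines were separate, with WC 21.5-fold above WA and WA 3.48-fold (adjusted p = 2.10e-06) above WB. Of 7 neural and glial markers tested 1 was called (14.3%, near the 11.8% of all autosomal genes). It was Tubb3, lowest in WC (617 ± 38.5 (WA), 669 ± 119 (WB) and 239.9 ± 23.1 (WC)). Of those not called, Nes was highest in WC at 1712 (WA), 1940 (WB) and 2216 (WC). Map2 was lowest there at 161 (WA), 182 (WB) and 131 (WC). Phf11d, a gene induced by interferon, read 62.1 to 207 in WA, 83.9 to 157 in WB and 3180.3 to 3285 in WC. WC was 20.8-fold (adjusted p = 1.39e-06) above WA.

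Genes low in WC included signalling regulators and smooth muscle genes. Pdzrn3, a scaffold protein with ubiquitin ligase activity, read 1796, 1664 and 1795 in WA, 3861 and 3915 in WB and 12.4, 2.47 and 54.4 in WC. WB was 95-fold (log2 SE 0.34, adjusted p = 1.88e-07) above WC, and WA 43.1-fold. Lce1h, of the late cornified envelope family that is otherwise known from skin and has close copies, read 6336, 6590.4 and 5713 in WA, 3396 and 3732 in WB and 50.3, 106 and 82.2 in WC, a 62.4-fold (adjusted p = 1.46e-09) difference between WA and WC. Dusp4, a nuclear phosphatase that turns off ERK, read 2168, 1787 and 1512 in WA, 2902 and 2918 in WB and 108, 77.7 and 83 in WC. WA exceeded WC 16.3-fold (adjusted p = 7.17e-09). Tfpi, the inhibitor that starts the brake on clotting, read 1504 to 1603 in WA, 1349 to 1463 in WB and 25.6 to 222 in WC, and the highest WC array lay well above the other two without reaching the other lines.

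Several contractile genes were lowest in WC. Of 27 smooth muscle and contractile genes tested 10 were called (37.0%, against 11.8%), 9 of them higher in WA than WC, and 5 were lower in WC than in both other lines (1.24% of all), namely Acta2, Actg2, Tagln, Cnn1 and Myl9. The median log2 difference over the 27 genes was 0.32 for WA minus WC and 0.091 for WB minus WC. Actg2, the enteric smooth muscle actin, read 6645, 7083 and 7673 in WA, 2031 and 2141 in WB and 167, 139 and 143 in WC. The lines formed steps from WA through WB to WC, 3.39-fold (log2 SE 0.10, adjusted p = 4.07e-07) for the first step and 12.3-fold (log2 SE 0.10, adjusted p = 1.87e-09) for the second. Tagln, or SM22, an actin-binding protein, read 11681, 12099.8 and 12981 in WA, 6663 and 7035 in WB and 1517, 1886 and 1645 in WC. WA exceeded WC 7.22-fold (log2 SE 0.08, adjusted p = 1.26e-09).

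Cnn1, calponin, which binds actin and slows myosin, read 2125, 2444 and 2742 in WA, 2256 and 2416 in WB and 107, 210.1 and 117 in WC. WA and WB overlapped, and WC was 14.6-fold (log2 SE 0.21, adjusted p = 2.83e-07) below WB. In empty-vector cells, by contrast, Cnn1 read 5561 ± 879 (WA), 6310.2 ± 596 (WB) and 3948 ± 975 (WC), and Tagln 18824 ± 3828 (WA), 16305 ± 1022 (WB) and 15412 ± 2381 (WC), so both were high in all 3 lines. The line-by-vector test called both (adjusted p = 1.41e-05 and 6.41e-09). Mylk, the kinase of myosin light chain, ran the other way, with 30.2 to 116 in WA, 251 to 262 in WB and 428 to 489 in WC. The CCN gene Ccn2, connective tissue growth factor, followed the contractile genes at 11274, 11173 and 10775 in WA, 2095 and 2142 in WB and 560.3, 501 and 599 in WC. WA exceeded WC 19.3-fold (log2 SE 0.07, adjusted p = 3.58e-11), while empty-vector cells read 20371 ± 3809.6 (WA), 14766 ± 705 (WB) and 15248 ± 566 (WC) (line-by-vector adjusted p = 3.33e-08).

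WB v-src cells were high in 3 acute-phase genes and Il6. Of 22 cytokine and STAT3 response genes tested 10 were called (45.5%, against 11.8%) and 4 were higher in WB than in both other lines (1.06% of all), Saa3, Lcn2, Hp and Il6. The median log2 difference over the 22 genes was -0.54 for WA minus WB and 0.0092 for WB minus WC. Other genes of that list, such as Socs3, Bcl3, Junb and Pim1, were not called. Saa3, a serum amyloid protein made in inflammation, read 172, 132 and 123 in WA, 7148 and 6235 in WB and 111, 123 and 141 in WC. WB was 40.9-fold (log2 SE 0.16, adjusted p = 6.79e-09) above WA, and WA and WC overlapped. Lcn2, a siderophore-binding protein that starves bacteria of iron, read 48.4, 27.2 and 44.4 in WA, 9911 and 8009 in WB and 489, 468 and 579.9 in WC. The lines were all separate, and WB exceeded WA 143-fold (log2 SE 0.17, adjusted p = 1.43e-09) and WC 16.8-fold.

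Hp, haptoglobin, which captures free hemoglobin, read 4.85, 7.06 and 5.08 in WA, 753 and 562 in WB and 161, 162 and 117 in WC, with WB 23.5-fold (adjusted p = 7.47e-07) above WA. Il6, the cytokine that itself activates STAT3, read 663, 565 and 367 in WA, 3816 and 3198 in WB and 312, 185 and 231 in WC. WB exceeded WC 13.5-fold (log2 SE 0.24, adjusted p = 9.23e-07) and WA 6.51-fold. None of these genes was high in WB with the empty vector, where Saa3 averaged 112 ± 36.5, Lcn2 37 ± 7.45, Hp 7.14 ± 2.0 and Il6 38.9 ± 28.9 (SD, n = 3). All 4 were called in the line-by-vector test, the largest adjusted p being that of Hp (1.00e-04). Il1rn, the natural antagonist of interleukin 1, was instead high in WC, at 77.3 to 138 in WA, 163 to 207 in WB and 3312 to 4637 in WC, and higher still there with the empty vector (12743 ± 4729).

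Other genes high in WB were Olr1, a scavenger receptor for oxidised lipoprotein, and Igfbp6, a binding protein for the growth factor Igf2. Olr1 read 3.51 to 35.6 in WA, 910.1 to 932 in WB and 4.69 to 36 in WC. WB was 21.9-fold (adjusted p = 3.28e-05) above WA. Igfbp6 read 155, 196 and 173 in WA, 3932 and 4074 in WB and 129, 200.2 and 221 in WC, so WB alone was high. Igfbp6 differed 19.9-fold (log2 SE 0.19, adjusted p = 6.01e-08) between WB and WC. In empty-vector cells the Igfbp6 pattern was the same, with 207 ± 16.9 (WA), 3658 ± 85 (WB) and 195 ± 29.3 (WC). WB also had the highest Fabp4 and Lpl, a fatty acid carrier and a lipase. Fabp4 averaged 175 (WA), 1954 (WB) and 601 (WC), and Lpl 133 (WA), 961 (WB) and 24.4 (WC). The 9 adipocyte and chondrocyte markers on the array summed to 4248 to 5051 units in WB, 2337 to 2667 in WC and 1399 to 1729 in WA. The adipocyte marker Adipoq averaged 23.2 (WA), 25.2 (WB) and 22.8 (WC) and Pparg 21.2 (WA), 11.3 (WB) and 44.2 (WC). Whether cells of that kind contributed to other WB differences was not tested.

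Genes low in WB were among the widest differences of the whole comparison. Cyba, the p22phox subunit of NADPH oxidase, read 1979, 2196 and 1980.5 in WA, 7.25 and 5.38 in WB and 4170.4, 3622 and 3502 in WC. WC exceeded WB 129-fold (log2 SE 0.10, adjusted p = 2.71e-11) and WA exceeded WB 70.7-fold (log2 SE 0.10, adjusted p = 1.10e-10). The same gap was present with the empty vector, at 1619 ± 395 (WA), 6.29 ± 1.03 (WB) and 3643 ± 244 (WC). Slc38a4, an amino acid transporter encoded by an imprinted gene, read 836, 666 and 834 in WA, 13.6 and 8.83 in WB and 377, 422 and 310.2 in WC, with WA 23.4-fold (adjusted p = 6.15e-08) above WB.

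Col12a1, a collagen that decorates the surface of fibrils, read 2365, 2807 and 2845 in WA, 181 and 226 in WB and 1869, 1596 and 1449.6 in WC, 11.9-fold (log2 SE 0.13, adjusted p = 2.27e-08) higher in WA than WB. Rps4l, a copy of a ribosomal protein gene whose probes may share signal with its parent, read 500.2 to 593 in WA, 4.3 to 10.3 in WB and 124 to 216 in WC. Rtp4, described with the interferon genes, was the remaining gene of the 5 most depleted in WB.

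Several genes were far higher in WA v-src cells than in the other lines. Gzmd, a granzyme protease with near-identical neighbours that the probe set may also read, gave 1685, 1945 and 2447 in WA, 0.796 and 1.84 in WB and 10.8, 1.16 and 1.5 in WC. WA exceeded WB 83.3-fold (log2 SE 0.27, adjusted p = 6.86e-08) and WC 74.6-fold (log2 SE 0.24, adjusted p = 1.65e-08). With the empty vector WA was also highest, at 319 ± 74.7, but the gap was smaller (line-by-vector adjusted p = 1.00e-04). U90926, a gene known by its sequence number, read 1641, 1188 and 1130.3 in WA, 23.6 and 119 in WB and 148, 42.5 and 29.9 in WC. WA was 16.3-fold (log2 SE 0.52, adjusted p = 1.95e-04) above WB. In empty-vector cells its order was different, 329 ± 262 (WA), 742 ± 81.1 (WB) and 669 ± 198 (WC). Pappa, a protease that frees insulin-like growth factors from their binding proteins, read 1039, 1169 and 1656 in WA, 38.5 and 31.4 in WB and 106, 129 and 113 in WC. WA exceeded WB 22.2-fold (log2 SE 0.21, adjusted p = 1.52e-07).

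Rpl39l, a copy of a ribosomal protein gene, read 828 to 913 in WA, 12.3 to 44.2 in WB and 33.3 to 53.4 in WC. WA was 14-fold (adjusted p = 7.83e-07) above WC. Glipr1, a secreted protein regulated by p53, read 1794, 1831 and 1879 in WA, 7.81 and 104 in WB and 213, 182 and 179 in WC, with WA 29.7-fold (adjusted p = 1.28e-05) above WB and the 2 WB arrays far apart from each other. Ctsk, the collagen-cutting cathepsin K, was likewise highest in WA, at 1023 to 1425 in WA, 150.2 to 159 in WB and 107 to 149.8 in WC, 8.32-fold (adjusted p = 1.66e-07) above WC. So was Pax3, a transcription factor of somites and neural crest, with 456 to 479 in WA, 40.7 to 144 in WB and 9.92 to 151 in WC. Acta1, the skeletal muscle actin, was called too, at 707 (WA), 147 (WB) and 71.7 (WC). The 13 skeletal muscle markers on the array summed to 1629 to 1874 units in WA against 1033 to 1312 in the others, and the muscle regulators Myod1 averaged 101 (WA), 66.8 (WB) and 102 (WC), Myog 50.2 (WA), 27.4 (WB) and 27.7 (WC).

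More genes were low in WA than high in it. Cd34, a sialomucin of stem cells and fibroblasts, read 96.4, 89.5 and 81.6 in WA, 1800.2 and 1991 in WB and 2059, 2065 and 1911 in WC. WB and WC overlapped, and WA was 17.1-fold (log2 SE 0.11, adjusted p = 2.00e-09) below WB. Without v-src Cd34 read 102 ± 43.5 (WA), 2805 ± 32.9 (WB) and 2951 ± 305 (WC). Cp, ceruloplasmin, the copper-carrying oxidase of iron export, read 155, 125 and 143 in WA, 5452 and 5271 in WB and 2218, 2487 and 2464 in WC. The lines were separate, and WB exceeded WA 32.9-fold (log2 SE 0.10, adjusted p = 2.76e-10) and WC exceeded WA 14.7-fold. Cbr2, a carbonyl reductase, read 33.2 to 102 in WA, 1185 to 1321 in WB and 2252 to 2589 in WC. WC was 28.9-fold (adjusted p = 5.58e-08) above WA. Sod3, the extracellular superoxide dismutase, read 14, 18.7 and 19.1 in WA, 489 and 549 in WB and 847, 1310.2 and 1068 in WC, 26.9-fold (log2 SE 0.18, adjusted p = 1.24e-08) lower in WA than WC.

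Several chemokines were lowest in WA. Of 17 tested 9 were called (52.9%, against 11.8%), and 5 were lower in WA than in both other lines (2.02% of all), namely Ccl2, Ccl7, Cx3cl1, Cxcl5 and Cxcl12. Cxcl5, which attracts neutrophils, read 317, 244 and 300.1 in WA, 3558 and 3994 in WB and 4422, 4261 and 4406 in WC. WC exceeded WA 14.2-fold (log2 SE 0.09, adjusted p = 6.25e-10). Cxcl12, which holds stem cells in their niche, read 1009, 867 and 1004 in WA, 7789 and 8872 in WB and 3179, 3916 and 3098 in WC, highest in WB, 8.5-fold (log2 SE 0.11, adjusted p = 1.97e-08) above WA. Ccl7, which attracts monocytes, read 186 to 281 in WA, 677 to 729.9 in WB and 1027 to 1282 in WC. WC was 4.44-fold (adjusted p = 9.75e-07) above WA. With the empty vector Ccl7 read 318 ± 28.6 (WA), 537 ± 47 (WB) and 289.9 ± 10.1 (WC), and the line-by-vector test called 9 of the 17 chemokines (5.73% of all autosomal genes).

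Hox genes, which record a cell's position along the body and the limb, differed by cluster. Of 39 listed members of the 4 clusters 18 were tested. Since a gene could pass the filter through 1 line, counts over the tested members are a description. WB expressed HoxB and HoxC genes, with Hoxb2, Hoxb3, Hoxb4 and Hoxb6 (4 of 5 tested) and Hoxc6 and Hoxc8 (2 of 3) above both other lines. In WC Hoxa9, Hoxa10 and Hoxa11 (3 of 6 HoxA genes tested) and Hoxd13 (1 of 4 HoxD genes) were above both others, while Hoxa13 was not called. None of the 18 was higher in WA than in both others, as 0.832% of all autosomal genes were.

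Hoxc8, a gene of the chest level, read 47.2, 15.4 and 52.1 in WA, 3551 and 3834 in WB and 36.4, 53.6 and 38.5 in WC. WB exceeded WA 63.3-fold (log2 SE 0.30, adjusted p = 2.10e-07) and WC 56.8-fold, and WA and WC overlapped. Hoxc6 read 263, 324 and 443 in WA, 2349 and 2002 in WB and 232, 301 and 306 in WC, with WB 7.29-fold (log2 SE 0.20, adjusted p = 1.64e-06) above WC; its probe set is of a type that can read related sequences. Hoxb2, which patterns the hindbrain, read 171, 186 and 201 in WA, 818 and 768 in WB and 97.7, 50.4 and 48.8 in WC, and the 3 lines were separate. Hoxb6 read 15.5 to 79.8 in WA, 325 to 381 in WB and 22.4 to 54.8 in WC. WB was 6.15-fold (adjusted p = 9.65e-04) above WC. Without WB replicate 3 the number of HoxB genes called above both other lines was 2 in place of 4.

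Hoxa10, which specifies the upper limb segments and the uterus, read 67, 79.1 and 94 in WA, 84.3 and 50.8 in WB and 2062, 1897 and 1705 in WC. WC exceeded WB 21.4-fold (log2 SE 0.20, adjusted p = 5.97e-08) and WA 18.6-fold. Hoxa11, a gene of the lower limb segment, read 161, 154 and 177 in WA, 113 and 118 in WB and 1766, 1703 and 1651 in WC. WC was 9.25-fold (log2 SE 0.11, adjusted p = 7.17e-09) above WA. Hoxd13, which shapes digits and genitals, read 104, 108 and 151 in WA, 115 and 107 in WB and 1241, 1034 and 1368 in WC, with WC 9.17-fold (log2 SE 0.19, adjusted p = 4.38e-07) above WB. Hoxd8, another gene of that cluster, was instead lowest in WC, at 882 to 1094 in WA, 848 to 929.6 in WB and 268 to 313 in WC. These gaps were also there with the empty vector, where Hoxa10 read 65.9 ± 30.9 (WA), 47 ± 22.9 (WB) and 2516 ± 205 (WC) and Hoxc8 21.9 ± 13.4 (WA), 6053 ± 363 (WB) and 54 ± 4.09 (WC). Of the 18 genes tested 1, Hoxb4, was called in the line-by-vector test (adjusted p = 0.0349), which is near the 5.73% of all autosomal genes. The calls of Hoxa3, Hoxc5 and Hoxd9 were lost under some other settings.

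**Figure D3:**
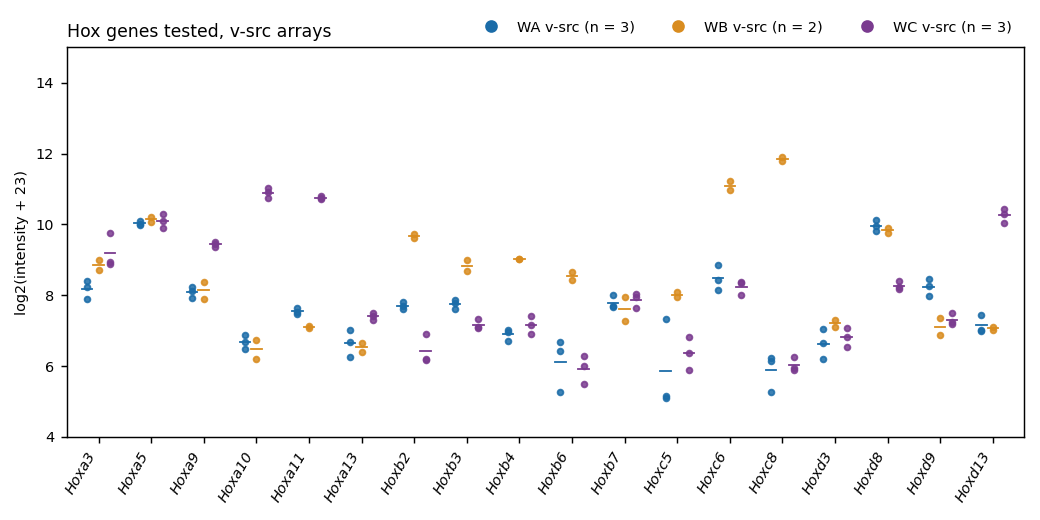
Values of log2(intensity + 23) for each v-src array (points) and line means (bars) of the 18 Hox genes tested; WA in blue (n = 3), WB in orange (n = 2), WC in purple (n = 3). WB points lie highest for Hoxb2, Hoxb3, Hoxb4, Hoxb6, Hoxc6 and Hoxc8, and WC points for Hoxa9, Hoxa10, Hoxa11 and Hoxd13.

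Other transcription factors of patterning also differed. Of 55 tested 27 were called (49.1%, against 11.8%), and 10 were higher in WC than in both others (2.42% of all). Tbx18, a T-box factor of the limb, heart and ureter mesenchyme, read 227, 251 and 337 in WA, 498 and 622 in WB and 2456, 2515 and 2199 in WC, with all lines separate and WC 8.27-fold (log2 SE 0.14, adjusted p = 4.68e-08) above WA. Irx3, a homeobox factor of limb and fat, read 320.3 to 425 in WA, 315 to 336 in WB and 2462 to 2802 in WC. WC was 7.65-fold (adjusted p = 3.89e-08) above WB. Neither was called in the line-by-vector test (adjusted p = 0.62 and 0.0594). Sox2, a factor of stem and neural progenitor cells, was different: it read 36.8, 28.2 and 53.1 in WA, 24.2 and 4.04 in WB and 1032, 1042 and 1139 in WC with v-src, but 26 ± 7.32 (WA), 8.35 ± 10 (WB) and 5.22 ± 2.8 (WC) with the empty vector. WC with v-src exceeded WB 30.6-fold (log2 SE 0.28, adjusted p = 3.91e-07), and the dependence on vector had an adjusted p of 1.68e-07.

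Imprinted genes, of which 1 parental copy is silent, also separated the lines, with 11 of 23 tested called (47.8%, against 11.8%). Dlk1, a membrane protein that holds back fat cell formation, was high in WB at 190.0, 211 and 142 in WA, 3168 and 3474 in WB and 136, 192 and 148 in WC, 16.5-fold (log2 SE 0.18, adjusted p = 1.14e-07) above WA. Peg3, a zinc finger protein of the paternal copy, read 2041, 1791 and 1667 in WA, 414 and 425 in WB and 43.1, 49.6 and 75.1 in WC, with a step of 4.18-fold (log2 SE 0.18, adjusted p = 1.17e-05) from WA to WB and 5.69-fold from WB to WC. Igf2, insulin-like growth factor 2, was highest in WA at 479 to 794 in WA, 145 to 289 in WB and 53.5 to 72.6 in WC, but its other probe set that passed the filter did not share the direction. Cdkn1c, an inhibitor of cyclin-dependent kinases from the maternal copy, was highest in WB at 159 to 221 in WA, 961 to 998 in WB and 106 to 186 in WC.

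Many extracellular matrix genes differed. Of 53 matrix glycoprotein and proteoglycan genes tested 33 were called (62.3%, against 11.8%), and 12 were higher in WC than both others (2.42% of all). Efemp1, a fibulin of elastic fibres, read 258, 239.9 and 415 in WA, 90.2 and 72.6 in WB and 4214, 4142 and 3651 in WC, a 38.6-fold (log2 SE 0.20, adjusted p = 1.61e-08) gap between WC and WB. Postn, periostin, which cross-links collagen, was lowest in WC at 4053, 4886 and 6020.2 in WA, 2746 and 3214 in WB and 162, 288 and 188 in WC, 21.5-fold (log2 SE 0.18, adjusted p = 2.49e-08) below WA. Thbs2, a thrombospondin that limits vessel growth, was highest in WB at 866 to 1556 in WA, 6258 to 6588 in WB and 188 to 315 in WC, 23.7-fold (adjusted p = 1.37e-07) above WC. Lum and Dcn, small proteoglycans that space collagen fibrils, were lowest in WA. Lum read 116 to 169 in WA, 568 to 802 in WB and 1811 to 1862 in WC, and Dcn 3836 to 4377 in WA, 16097 to 16775 in WB and 15838 to 17076 in WC.

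Of 22 collagen genes tested 9 were called (40.9%, against 11.8%). Col18a1, the basement membrane collagen that yields endostatin, read 253, 278 and 208 in WA, 329 and 274 in WB and 3863, 3842 and 3325 in WC. WC was 13.8-fold (log2 SE 0.12, adjusted p = 3.71e-09) above WA. Col7a1, of anchoring fibrils, was highest in WB at 348 (WA), 767 (WB) and 254 (WC), and Col11a1, a fibrillar collagen of cartilage, in WA at 838 (WA), 265 (WB) and 468 (WC).

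Proteases and their inhibitors had 20 of 35 tested called (57.1%, against 11.8%). Mmp13, a collagenase that v-src raised in every line, read 713, 538 and 466 in WA, 643 and 639 in WB and 9660.2, 8538 and 9365 in WC, so that WC was 15.7-fold (log2 SE 0.12, adjusted p = 3.66e-09) above WA. Empty-vector cells read 24 ± 23.7 (WA), 6.22 ± 4.22 (WB) and 45.4 ± 16.1 (WC). Mmp3, stromelysin, which activates other proteases, read 477, 510.0 and 445 in WA, 1076 and 1238 in WB and 4086, 3303 and 3174 in WC, with all lines separate. Serpina3n, an inhibitor of serine proteases, read 27.7, 12.3 and 9.67 in WA, 42.7 and 105 in WB and 1236, 1198 and 1034 in WC, 30.3-fold (log2 SE 0.27, adjusted p = 1.72e-07) higher in WC than WA. Adam8, a surface metalloprotease, was also highest in WC at 346 (WA), 332 (WB) and 2586 (WC).

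Of 30 integrin and cadherin genes 10 were called (33.3%, against 11.8%). Cdh13, a cadherin without a cytoplasmic tail, read 513 to 615 in WA, 138 to 178 in WB and 2138 to 2424 in WC. WC was 12.8-fold (adjusted p = 1.01e-08) above WB. Mcam, an adhesion molecule of vessel walls, was highest in WA at 1263 to 1326 in WA, 127 to 220.0 in WB and 63.3 to 159.7 in WC, 10.9-fold (adjusted p = 1.78e-06) above WC. Cdh3, P-cadherin, read 369.8 (WA), 144 (WB) and 44.2 (WC), and Itgb8, an integrin that activates TGF-beta, 33.6 (WA), 58.3 (WB) and 328 (WC).

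Of 38 growth factor genes 17 were called (44.7%), and of 41 Wnt, BMP and TGF-beta genes 22 (53.7%), against 11.8% of all. Hgf, the ligand of Met, read 12.4, 22.8 and 73.8 in WA, 631 and 585 in WB and 260.5, 240.4 and 244 in WC, with all lines separate and WB 11.7-fold (log2 SE 0.35, adjusted p = 3.28e-05) above WA. Fst, follistatin, which binds activin, read 1191, 1122 and 732 in WA, 4090.1 and 3706 in WB and 9594, 8879 and 9473 in WC, 9.18-fold (log2 SE 0.14, adjusted p = 4.11e-08) higher in WC than WA. Fst without v-src was instead highest in WB, at 227 ± 133 (WA), 6466 ± 349.9 (WB) and 858 ± 78.7 (WC) (line-by-vector adjusted p = 5.33e-07). Sfrp2, a secreted Wnt modulator, was highest in WB at 280.0 to 503 in WA, 2671 to 3167 in WB and 553 to 939.9 in WC, and Nkd2, an inhibitor inside the Wnt pathway, lowest in WC at 423 to 491 in WA, 308 to 316 in WB and 72 to 85.1 in WC.

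Genes of ERK output, called for 9 of 31 (29.0%, against 11.8%), differed in various orders of the lines. Spry4, a feedback inhibitor of Ras signalling, read 1153 to 1246 in WA, 478 to 641 in WB and 144 to 329 in WC, highest in WA. Egr3, an immediate early factor, was lowest in WA at 179 to 275 in WA, 1138 to 1282 in WB and 592 to 725 in WC, and Hbegf, a ligand of the EGF receptor, highest there at 5855 to 6574 in WA, 2307 to 2538 in WB and 3441 to 4189.8 in WC.

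Antioxidant and detoxification genes had 14 of 32 called (43.8%, against 11.8%), 6 of them lower in WA than in both other lines (2.02% of all). Akr1c18, a steroid-reducing enzyme, read 595, 575 and 357 in WA, 5203 and 4841 in WB and 1787, 1551 and 2073 in WC. WB was 9.7-fold (log2 SE 0.19, adjusted p = 6.44e-07) above WA. Mgst1, a membrane glutathione transferase, read 205 to 240.5 in WA, 2175 to 2252 in WB and 653 to 766 in WC, 9.24-fold (adjusted p = 1.77e-08) higher in WB than WA. Cyp7b1, which hydroxylates oxysterols, was high in WC at 72.1 (WA), 88.8 (WB) and 684 (WC). Of 32 glycolysis and hypoxia genes 8 were called (25.0%, against 11.8%). Car9, a carbonic anhydrase that hypoxia induces, read 61.4, 24 and 25.6 in WA, 34.6 and 54.7 in WB and 1206, 1329.7 and 1097 in WC, 21.3-fold (log2 SE 0.25, adjusted p = 1.96e-07) higher in WC than WA. Angptl4, a lipase inhibitor, was highest in WB at 665 to 729 in WA, 2818 to 2893 in WB and 1318 to 1511 in WC, and Slc2a3, a glucose transporter, lowest in WC at 1363 to 1549.8 in WA, 1014 to 1097 in WB and 351 to 364 in WC.

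Few genes of mitosis, ribosome biogenesis, DNA replication or cholesterol synthesis were 2-fold apart, where 11.8% of all autosomal genes were called. Of 28 mitosis genes and 32 ribosome biogenesis genes tested limma called 0 in each list, although 20 and 28 of them had an unadjusted p under 0.05. Of all 12616 autosomal genes 6525 had such a p in the F test. The adjusted p was under 0.05 for 14 of the mitosis and 28 of the ribosome biogenesis genes, against 44.9% of all. Ribosome biogenesis genes thus differed more often than genes in general, though by less than 2-fold. Their median WA minus WC was 0.41, against 0.015 over all genes. The median span of line means was 0.26 for mitosis and 0.52 for ribosome biogenesis on the log2 scale, where that of all autosomal genes was 0.41. Of 27 DNA replication genes 1 was called, Cdc45, a helicase subunit on chromosome 16 at 829 (WA), 1424 (WB) and 664 (WC), and its other probe set that passed the filter did not share the direction. The call did not hold when probe sets were averaged or WB replicate 2 was left out. Cholesterol synthesis had 1 of 17 called, Dhcr7, which makes the last step, at 453 (WA), 1023 (WB) and 510.1 (WC).

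The integrated stress response had 4 of 30 genes called (13.3%, near the 11.8% of all genes), Trib3, Psph, Cth and Nupr1, of which Cth lost its call under a higher pseudocount and without WA replicate 2 or WB replicate 3. Of 31 p53 targets and Cdk inhibitors 8 were called (25.8%), among them Pmaip1, the killer protein Noxa, at 1942 to 2309 in WA, 339.8 to 361 in WB and 510.0 to 665 in WC, Perp, a membrane protein of desmosomes and apoptosis, at 14.4 to 67.5 in WA, 10.8 to 12.6 in WB and 348 to 389 in WC, and Cdkn2c, an inhibitor of Cdk4, at 1784 to 1991 in WA, 3032 to 3242 in WB and 5258 to 6003 in WC.

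Of 30 Src family kinases and partners tested 17 had an adjusted p under 0.05 in the F test, where 44.9% of all autosomal genes did. With 2-fold 1 was called (11.8% of all genes), the docking protein Dok1, at 2694 (WA), 1346 (WB) and 2773 (WC). That call was lost without WB replicate 3. Yes1 and Fyn, Src's closest relatives, averaged 619 (WA), 523 (WB) and 567 (WC) for Yes1 and 1987 (WA), 1488 (WB) and 1471 (WC) for Fyn. Csk, the kinase that restrains Src, averaged 1599.6 (WA), 1442 (WB) and 1256 (WC). Fyn and Csk passed the F test on adjusted p (0.00297 and 0.00755) without reaching 2-fold. Myc averaged 2966 (WA), 2811 (WB) and 2553 (WC) (adjusted p = 0.0765), the cell cycle inhibitors Cdkn1a 2254 (WA), 1584 (WB) and 2095 (WC) and Cdkn2a 624 (WA), 895 (WB) and 1031 (WC), and cyclin D1 (Ccnd1) 3679.9 (WA), 4938 (WB) and 6867 (WC), none of them 2-fold apart.

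The genes that earlier results of these samples had found induced by v-src were not equally high in the 3 lines. Of 21 such genes tested 13 were called (61.9%, against 11.8% of all autosomal genes), and 9 were called lower in WA than WB (3.56% of all). Of 14 lowered genes 9 were called (64.3%). Both lists were chosen on these samples and are not independent evidence. Il33, an alarm cytokine kept in the nucleus, read 5467, 4165 and 3869 in WA, 10247 and 10789.7 in WB and 9578, 7915 and 8934 in WC, so WA was lowest, 2.36-fold (log2 SE 0.13, adjusted p = 4.01e-05) below WB. Upp1, an enzyme that salvages uridine, read 1142 to 1523 in WA, 2599 to 3359.9 in WB and 2341 to 3211 in WC. WB was 2.21-fold (adjusted p = 3.30e-04) above WA. Serpinb2, an inhibitor of urokinase, was lowest in WC at 11802, 10765 and 10004 in WA, 9389 and 8415 in WB and 4538, 3261 and 4517 in WC, 2.66-fold (log2 SE 0.12, adjusted p = 3.57e-06) below WA. Thy1, a surface glycoprotein of fibroblasts, was likewise lowest in WC at 11548 to 13029 in WA, 14789 to 14884 in WB and 6156 to 6557 in WC. Ogn, a proteoglycan that v-src lowers, read 76.9 to 105 in WA, 224 to 280.2 in WB and 1349 to 1743 in WC. WC was 13.8-fold above WA.

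About as many line differences were called with the empty vector as with v-src, 672 (5.33%) between WA and WB, 970 (7.69%) between WA and WC and 824 (6.53%) between WB and WC. The v-src and empty-vector comparisons use separate arrays. Of the 696 WA and WB differences in v-src cells 607 had the same sign with the empty vector and 326 were called there in the same direction, which is 46.8% of the v-src calls and 48.5% of the empty-vector calls. For WA and WC 962 of 1060 had the same sign and 558 were called, 52.6% and 57.5%. For WB and WC 702 of 805 had the same sign and 369 were called, 45.8% and 44.8%. Across the 12616 genes the correlation of the differences was 0.58, 0.68 and 0.60; genes are not independent replicates, and these values are a description.

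The test of line by vector, which asks whether a line difference is another one with v-src than with the empty vector, called 723 autosomal genes (5.73%), and 1723 (13.7%) on adjusted p alone. Among the v-src calls 245 of the WA and WB genes (35.2%), 367 of the WA and WC genes (34.6%) and 313 of the WB and WC genes (38.9%) were called in it. The genes with the widest change include Ppbp, a platelet chemokine, at 2166, 2087 and 1515 in WA, 213 and 213 in WB and 1064, 982 and 919 in WC with v-src, but 110.1 ± 28.6 (WA), 149.8 ± 37.7 (WB) and 2752 ± 1137 (WC) with the empty vector. Ifit1bl1, a relative of Ifit1 with close copies, read 65.9, 108 and 83.7 in WA, 84.7 and 17.4 in WB and 1996, 1201 and 1974 in WC against 58 ± 24 (WA), 82.3 ± 42.6 (WB) and 62.7 ± 31.3 (WC). Dcn, decorin, read 4059 ± 283 (WA), 16436 ± 479 (WB) and 16429 ± 621 (WC) with v-src and 429.7 ± 221 (WA), 8784 ± 1288 (WB) and 285 ± 87.6 (WC) with the empty vector, so that WC lay near WA without v-src and near WB with it.

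**Figure D4:**
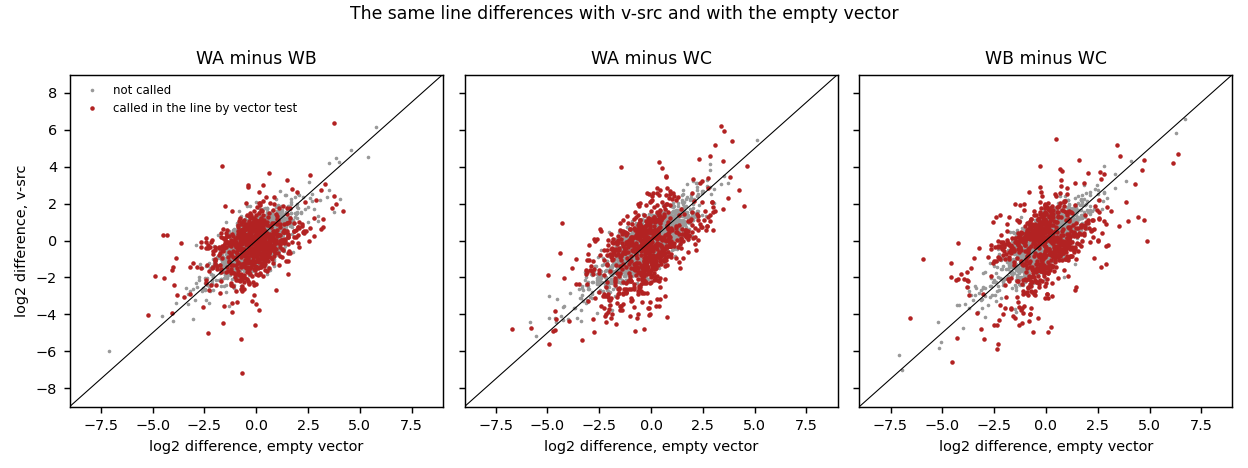
Each point is 1 autosomal gene, with its log2 difference between 2 lines in empty-vector cells on the x axis and in v-src cells on the y axis; the line marks equality and red points were called in the line-by-vector test (723 genes). Points spread along the line in each panel (r = 0.58, 0.68 and 0.60), and red points include genes near 0 on the x axis that are far from 0 on the y axis.

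By position, chromosome 16 had the widest median differences for WA minus WB and for WB minus WC. The median log2 difference of the 428 autosomal genes tested on chromosome 16 was -0.34 for WA minus WB and 0.35 for WB minus WC, whereas WA minus WC was 0.010. For the other 18 autosomes the medians ran from -0.14 to 0.14 for WA minus WB and from -0.19 to 0.11 for WB minus WC. WB was above WA for 353 of the 428 genes (82.5%) and above WC for 341 (79.7%), most by small amounts. On the other autosomes WB was above WC for at most 63.9% of genes. WA was above WB for at least 33.5% on each of those, against 17.5% on chromosome 16. There 13 genes were called above both others (1.06% of all autosomal genes) and 3 below both (0.713% of all). In single arrays the median of the chromosome's genes, each centred on its mean, was taken minus that of all autosomal genes. It was 0.26 to 0.28 in WB, -0.094 to -0.085 in WA and -0.11 to -0.078 in WC. WB was therefore separate, while WA and WC overlapped.

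Cells with the other vectors had the same shift, with medians of -0.37 and 0.30 for the empty vector and -0.32 and 0.29 for c-myc. The chromosome holds Rtp4, Rpl39l, Mylk and Cdc45 among the genes described. Single genes could run against the shift, as Rtp4 and Rpl39l, which were higher in WA than in WB, and Mylk, which was lower in WB than in WC. Chromosome 7 was lowest for WB minus WC, at -0.19.

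**Figure D5:**
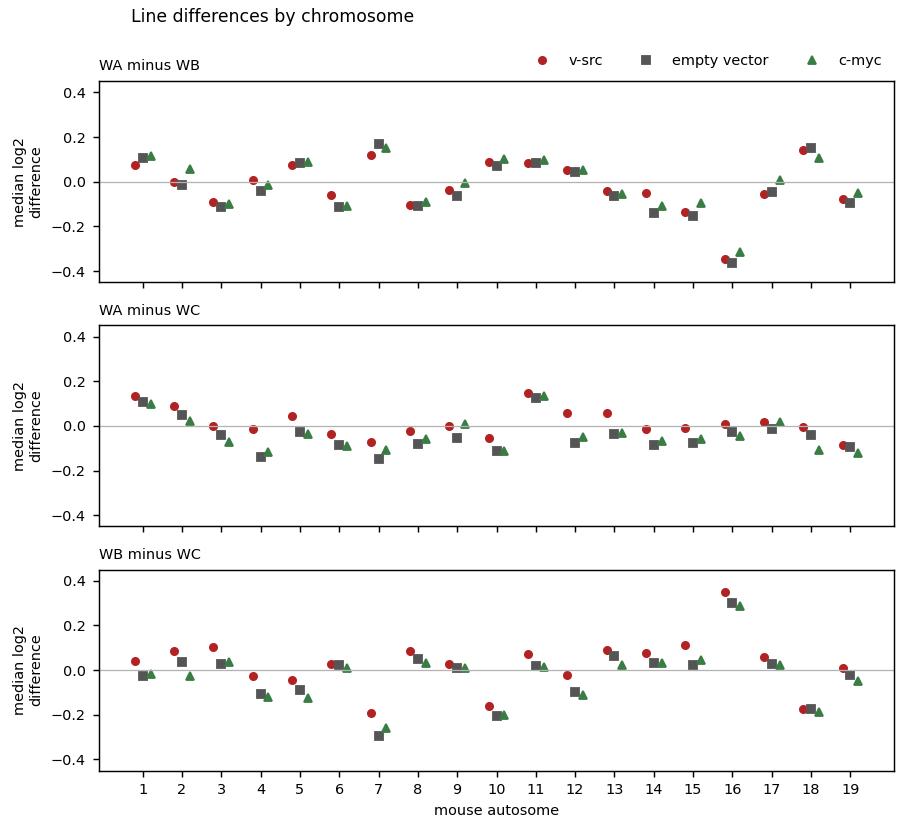
Median log2 difference between lines over the autosomal genes tested on each chromosome (x axis, chromosomes 1 to 19), for v-src (red circles), empty vector (grey squares) and c-myc (green triangles). Chromosome 16 lies lowest for WA minus WB (-0.34 with v-src) and highest for WB minus WC (0.35) with each vector.

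Genes of the sex chromosomes were left out of the counts above because the lines differ there too. Xist, expressed from the inactive X chromosome of females, read 5015 to 5873 in WA, 245 to 281 in WB and 5513 to 6717 in WC, whereas the Y-linked Kdm5d read 56.2 to 108 in WA, 279.9 to 309 in WB and 44.4 to 54 in WC. Uty, also Y-linked, read 69.3 to 109 in WA, 293 to 316 in WB and 19 to 50.1 in WC. WB was therefore low for Xist and high for Y-linked genes with v-src, and the same held with the empty vector (Xist 5268 ± 200.5 (WA), 235 ± 21.4 (WB) and 5957 ± 521 (WC)).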

How the data were processed

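The data are 26 Affymetrix arrays of immortalized mouse embryonic fibroblasts, of which the 8 v-src arrays (WA 3, WB 2, WC 3) were compared. The deposited intensity values, per the submitters' processing notes made with MAS5 (version not given in the sources used here), hold 45101 probe sets per array. Scanner files and detection calls were not used here, so precision is limited by the number of arrays. After leaving out control probe sets and those with several or no gene symbols, values were taken as log2(intensity + 23), where 23 is the 20th percentile of all values. Only probe sets with a mean over the 8 v-src arrays above the 40th percentile of such means were used. Each gene is represented by its brightest one, which left 13108 genes, 12616 of them autosomal. Chromosomes came from the RefSeq table of GRCm38.p6.

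Line means were compared with limma 3.58.1 in R 4.3.3 (lmFit, eBayes with an intensity trend) on the 8 arrays, with a moderated F test and 3 pairwise contrasts. A call needed an adjusted p under 0.05 (Benjamini-Hochberg over the 13108 genes) and at least 2-fold. The line-by-vector test and the empty-vector comparisons used all 26 arrays with 9 means. All adjusted p-values are from limma, and errors given after ± are SDs. Named genes are the 5 with the widest gap per line and direction and a line mean of at least 200, up to 4 called members per gene list with the widest span, a fixed set (Src, Myc and others), and the 8 with the largest line-by-vector change; members of counts of 5 or fewer and genes named as marker checks came after values were seen. The arrays to compare, the gene lists and the rules were chosen with earlier results of these data known. Code was tested on simulated data. Trp53, in the fixed set, had no probe set among those used here.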

Additional observations from a re-analysis of the deposited data

Results flagged for a closer look

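The line differences of 723 autosomal genes differed between v-src and empty-vector cells by the line-by-vector test. The 8 with the largest changes are given with their change in log2 difference, v-src minus empty vector. For U90926 the difference WA minus WB changed by 5.68, with WA highest with v-src and lowest with the empty vector. For Sod3, WB minus WC changed by 4.95, with WB at 489 and 549 with v-src and 16.2 ± 5.88 (SD, n = 3) without it. Saa3 changed by 5.02 for WB minus WC, and Lcn2 by -6.47 for WA minus WB, both through WB. Sox2 changed by -5.05 and Ifit1bl1 by -4.96 for WB minus WC, both through WC. Ppbp changed by 5.24 for WA minus WC, where the order of the lines turned. Dcn changed by -4.87 for WB minus WC, with WC at 285 ± 87.6 in empty-vector cells.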

How the results depend on the processing

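The number of genes called by the F test was 1486 and ranged from 1219 with a pseudocount of 74 to 1716 without the filter on low values; 1192 and 1444 of the original genes remained in those settings. The pairwise counts ran from 533 to 810 (WA and WB), 849 to 1236 (WA and WC) and 669 to 931 (WB and WC), and the line-by-vector count from 625 to 758, each within 1.5 times the reported count. Quantile normalization gave 1511, the mean of a gene's probe sets 1397 and leaving out 1 array in turn 1451 to 1559. With the replicate number as a block 1490 genes were called, 1441 of them shared; same-numbered arrays did not deviate together (r from -0.12 to 0.09), so the numbers were not taken as pairs. The chromosome 16 median for WA minus WB was -0.32 with the higher pseudocount and -0.27 without the filter, and for WB minus WC 0.32 and 0.27; leaving out 1 array gave 0.35 to 0.38 for WB minus WC, the highest without WC replicate 3. The number of HoxB genes higher in WB was 2 to 4 when 1 array was left out, with 2 without WB replicate 3. List and chromosome values under the alternatives were added after seeing the data. No named gene changed direction among the 137 tried. Of 129 called, 7 lost the call in some setting: Hoxa3, Hoxc5, Hoxd9, Cdc45, Cth, Dok1 and Pdgfd; the last lost it whenever a WC array was left out, and the cause was not tested. Ccnd1 gained a call with the mean of probe sets. No detection calls were used, so values near or under 23 units may be background, and folds against them are the least certain.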

Other observations

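Several stretches of chromosome 16 held genes that were higher in WB. Among windows of 21 neighbouring genes tested, picked for their size after the values were seen, the widest for WA minus WB were centred on Cbr3 (median -0.59), Urb1 (-0.56) and Crkl (-0.54). With the empty vector these windows read -0.52, -0.44 and -0.29, and with c-myc -0.38, -0.65 and -0.17. For WB minus WC windows centred on Apod (0.59) and Snai2 (0.56) were among the widest, at 0.59 and 0.37 with the empty vector and 0.44 and 0.21 with c-myc. Off chromosome 16, a window on chromosome 9 around Arhgap20 was lower in WA than in WB (-0.53) and WC (-0.53), with -0.20 and -0.34 in empty-vector cells. In c-myc cells it read 0.13 and -0.057, so the gap was not shared by every vector.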
